A study of Homo sapiens with 12 samples.

Results

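The miR-23, miR-24, miR-26 and miR-27 families were followed through 12 miScript miRNA PCR arrays of OCI-My5 cells, a human multiple myeloma cell line. The members were taken by name, and each is the arm of its hairpin that is usually the abundant form: hsa-miR-23a-3p, hsa-miR-23b-3p, hsa-miR-24-3p, hsa-miR-26a-5p, hsa-miR-26b-5p, hsa-miR-27a-3p and hsa-miR-27b-3p, named below without the species prefix. The array holds these 7 and 365 other miRNAs, and all 7 had a Ct under 35 on every array. My5.LV cells carried the empty lentiviral vector and had a low level of CRBN, and My5.CRBN cells carried a CRBN cDNA and had a high level of it. CRBN, or cereblon, is the protein that lenalidomide and the other IMiDs bind, and My5.LV cells were IMiD-resistant whereas My5.CRBN cells were IMiD-sensitive. Each line was run un-treated, with AGO2-sh72 (an shRNA against AGO2, also named EIF2C2), with AGO2 cDNA, with 10 μM lenalidomide for 72 h or 120 h, and with AGO2 cDNA together with lenalidomide for 72 h. AGO2 is an Argonaute protein that holds a mature miRNA and can slice a target. The shRNA and the cDNA came in lentiviral vectors with puromycin resistance. None of the 12 arrays is labelled as cells with those vectors empty, so each was set against un-treated cells. In these comparisons the change of AGO2, the lentiviral infection, the puromycin selection and time in culture cannot be told apart. No array is labelled as treated with DMSO or as un-treated cells kept for 72 h or 120 h. In the lenalidomide comparisons the drug, its vehicle and time in culture therefore cannot be told apart. No well of the array measures AGO2 itself.

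A miRNA of these families is cut from a hairpin by Drosha and Dicer, loaded into an Argonaute protein, and guides it to mRNAs that pair with its seed, bases 2 to 8. The miR-23, miR-27 and miR-24 genes lie together in a pair of clusters that arose by duplication, each transcribed as one primary RNA. The miR-26 genes lie inside introns of the CTDSP phosphatase genes. In blood cells, miR-24 and the miR-23a cluster are known from work on haematopoietic differentiation and the cell cycle, and miR-26a from work on MYC and EZH2 in lymphoma.

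The mature sequences are printed because the paralogs are nearly the same molecule, which sets how far their assays can be told apart. They are RefSeq sequences of the GRCh38.p14 assembly, 5′ to 3′, with the seed in capitals.
miR-23a-3p: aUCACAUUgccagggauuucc
miR-23b-3p: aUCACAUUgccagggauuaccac
miR-27a-3p: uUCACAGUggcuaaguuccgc
miR-27b-3p: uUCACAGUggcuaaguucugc
miR-24-3p: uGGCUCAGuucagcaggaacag
miR-26a-5p: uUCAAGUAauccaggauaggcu
miR-26b-5p: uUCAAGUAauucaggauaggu
Counted from 1 at the 5′ end, miR-23a-3p and miR-23b-3p differ by U19A and by 2 more bases at the 3′ end of miR-23b-3p. The substitution between miR-27a-3p and miR-27b-3p is C19U, and those between miR-26a-5p and miR-26b-5p are C11U and C21U, with miR-26b-5p 1 base shorter. Paralogs of a pair share their seed. Of all miRNAs on the array, 330 matched a RefSeq sequence, and no other of these has a seed of the 7. How far one assay of a pair also reads its paralog was not tested, so values of single paralogs are uncertain to that extent.

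The MIR23A cluster, with MIR23A, MIR27A and MIR24-2, lies on the minus strand of chromosome 19 at chr19:13836287-13836659, in 373 bases with no other annotated gene across it. The MIR23B cluster, with MIR23B, MIR27B and MIR24-1, lies on the plus strand of chromosome 9 at chr9:95085208-95086088, in 881 bases within the span of the protein-coding gene AOPEP. The mature miR-24-3p comes from both clusters, so 1 assay reads the sum of both. The mature miR-26a-5p comes from MIR26A1 within CTDSPL (chr3:37969413-37969434, plus strand) and from MIR26A2 within CTDSP2 (chr12:57824658-57824679, minus strand), which cannot be told apart either. MIR26B lies within CTDSP1, with miR-26b-5p at chr2:218402657-218402677 on the plus strand.

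In these PCR arrays a well with more of its miRNA reaches the detection threshold in fewer cycles, so a low threshold cycle (Ct) stands for a high level. The level given here is the average Ct of 6 controls (RNU6-2 and the snoRNAs SNORD96A, SNORD95, SNORD72, SNORD68 and SNORD61) minus the Ct of the miRNA, on the log2 scale, and a difference of levels between arrays is a log2 fold change. Levels of different assays are not compared. The members had Ct values of 16.8 to 26.2 over the 12 arrays, the control wells had a mean Ct of 18.7 to 21.9 per array, and 324 to 367 of all miRNAs had a Ct under 35. There was 1 array per condition, so differences between conditions could not be checked against replicates and are given with no p-value. As a spread, each log2 fold change was set beside the SD that the 6 control wells showed in the same comparison, and 2 wells of 1 assay on an array differed by 0.187 cycles (root mean square, reverse transcription control) or 0.383 cycles (positive PCR control). In whole cultures, a lower level in all cells and fewer cells that hold the miRNA cannot be told apart. Of 4 blood-lineage miRNAs, miR-142-3p (Ct 12.4 to 18.6), miR-142-5p (19.1 to 23.4) and miR-150-5p (19.3 to 21.9) were detected on all arrays. The fourth, miR-155-5p, at a Ct of 28.9 to 35, reached the cap on 1. Of 17 miRNAs that mark other lineages (myeloid, erythroid, liver, muscle, epithelium, stroma and neuron), 16 were also under Ct 35 on all arrays. The liver miRNA miR-122-5p reached the cap on 3. The muscle miRNAs miR-1 and miR-206 were at 18.7 to 24.2 and 28.6 to 32.9. The epithelial miRNAs miR-200c-3p and miR-200a-3p were at 23.5 to 27.2 and 29.0 to 32.7. Detection under Ct 35 alone therefore did not set the cells apart from other lineages, and Ct values of different assays are not compared.

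Across the 12 arrays the members were low with AGO2-sh72 in both lines and high after 120 h of lenalidomide in My5.LV cells, whereas in My5.CRBN cells at 120 h most of them were near the un-treated level. The lowest level of 6 of the 7 members was in My5.LV cells with AGO2-sh72, and the highest level of 6 of the 7 was in My5.LV cells after 120 h of lenalidomide. The exceptions were miR-26b-5p, lowest in My5.CRBN cells with AGO2 cDNA, and miR-26a-5p, highest in My5.CRBN cells after 120 h of lenalidomide. The widest range of levels was that of miR-23a-3p (3.23), and the narrowest was that of miR-27a-3p (1.64).

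**Figure D1:**
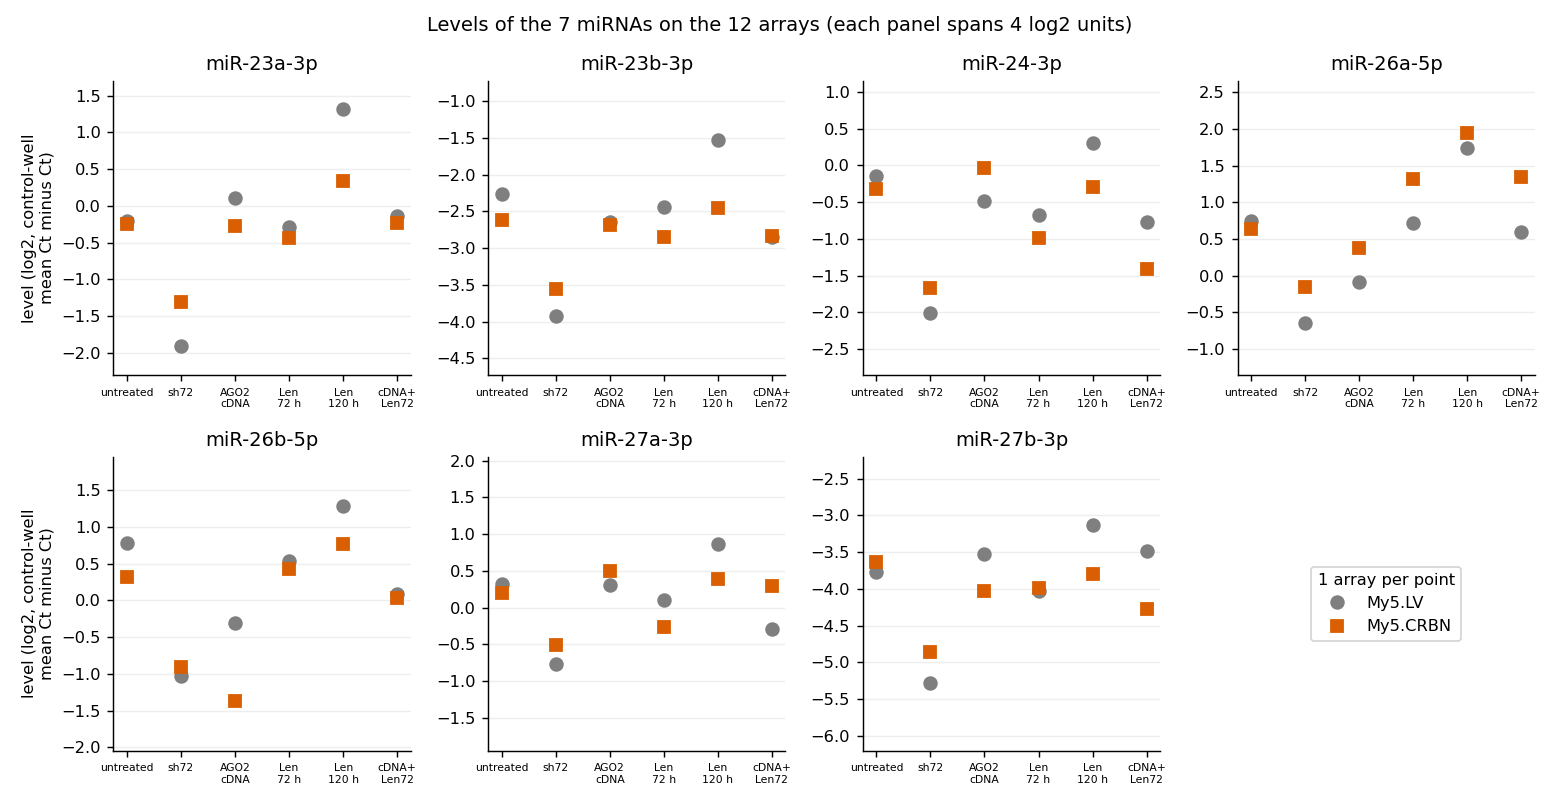
Level of each member (log2, mean Ct of the control wells minus Ct) in the 6 conditions of My5.LV cells (grey circles) and My5.CRBN cells (orange squares), 1 array per point. The AGO2-sh72 points are the lowest of the line in all panels but the My5.CRBN points of miR-26b-5p, where AGO2 cDNA is lower (-1.37 against -0.90).

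In the miR-23 family, the level of miR-23a-3p in My5.LV cells was -0.21 un-treated, -1.91 with AGO2-sh72, 0.10 with AGO2 cDNA, -0.29 after 72 h and 1.31 after 120 h of lenalidomide, and -0.14 with AGO2 cDNA and lenalidomide. In My5.CRBN cells its level was -0.25, -1.30, -0.28, -0.43, 0.33 and -0.23 in the same order. Both AGO2-sh72 arrays lay apart from the rest at the low end, and the My5.LV array at 120 h lay 0.98 above the next. The level of miR-23b-3p in My5.LV cells was -2.27, -3.93, -2.64, -2.44, -1.53 and -2.86, and in My5.CRBN cells it was -2.61, -3.56, -2.69, -2.85, -2.46 and -2.84. It was low and high on the same arrays as miR-23a-3p, in a range of 2.40.

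In the miR-27 family, the level of miR-27a-3p in My5.LV cells was 0.32, -0.76, 0.31, 0.10, 0.87 and -0.29, and in My5.CRBN cells it was 0.20, -0.51, 0.50, -0.27, 0.38 and 0.29. The level of miR-27b-3p in My5.LV cells was -3.77, -5.28, -3.52, -4.02, -3.12 and -3.48, and in My5.CRBN cells it was -3.63, -4.86, -4.03, -3.99, -3.79 and -4.27. For both, the AGO2-sh72 arrays held the lowest levels. The level of miR-24-3p, which both clusters give, was -0.14, -2.01, -0.49, -0.68, 0.30 and -0.77 in My5.LV cells, and -0.33, -1.67, -0.03, -0.99, -0.29 and -1.41 in My5.CRBN cells. In both lines miR-24-3p was below the un-treated level on every array with 72 h of lenalidomide.

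In the miR-26 family, the level of miR-26a-5p in My5.LV cells was 0.75, -0.64, -0.09, 0.72, 1.74 and 0.59, and in My5.CRBN cells it was 0.63, -0.15, 0.38, 1.32, 1.94 and 1.35. In My5.CRBN cells all 3 lenalidomide arrays lay above the un-treated array, and both arrays without lenalidomide but with AGO2-sh72 or AGO2 cDNA lay below it. The level of miR-26b-5p in My5.LV cells was 0.78, -1.03, -0.31, 0.53, 1.28 and 0.09, and in My5.CRBN cells it was 0.32, -0.90, -1.37, 0.43, 0.77 and 0.04. Its 3 lowest levels were those with AGO2-sh72 in both lines and with AGO2 cDNA in My5.CRBN cells. Between neighbours in the order of the 12 levels, 8 or 9 of the 11 gaps of each member were smaller than the SD of the control wells between the same arrays. The order in the middle of each range was therefore not resolved.

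With AGO2-sh72 all 7 members had lower levels in both lines. In My5.LV cells the log2 fold change against un-treated cells was -1.70 for miR-23a-3p, -1.66 for miR-23b-3p, -1.87 for miR-24-3p and -1.81 for miR-26b-5p, so these 4 of the 7 were at least 3 fold lower. It was -1.51 for miR-27b-3p, -1.39 for miR-26a-5p and -1.09 for miR-27a-3p, between 2.13 and 2.84 fold lower. Of all miRNAs, 23.7% were at least 3 fold lower in this comparison, and 43.3% were at least 2 fold lower against 7 of the 7 members. The SD of the control wells was 0.51, with single wells between -0.33 and 0.98, and each member lay farther from 0 than that SD.

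In My5.CRBN cells the same treatment gave smaller differences. The log2 fold change was -1.34 for miR-24-3p, -1.23 for miR-27b-3p, -1.22 for miR-26b-5p, -1.06 for miR-23a-3p, -0.95 for miR-23b-3p, -0.79 for miR-26a-5p and -0.71 for miR-27a-3p. None of the 7 was at least 3 fold lower, against 12.9% of all miRNAs, and 4 of the 7 were at least 2 fold lower, against 33.6%. The SD of the control wells was 0.30. Set directly against My5.LV cells with AGO2-sh72, the members were 0.13 to 0.61 higher in My5.CRBN cells with AGO2-sh72, where the median of all miRNAs was 0.19 higher and the control wells had an SD of 0.21. The 4 members at least 2 fold lower in both lines were miR-23a-3p, miR-24-3p, miR-26b-5p and miR-27b-3p, and 28.0% of all miRNAs were so.

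The AGO2-sh72 differences of the members were close to the medians of miRNAs with a like Ct, the members among them. The median of all miRNAs on the array was -0.79 for My5.LV cells and -0.52 for My5.CRBN cells, but miRNAs with a low Ct were lower after AGO2-sh72 than those with a high Ct. When the miRNAs were put into 10 equal classes by mean Ct, the classes that hold the members had medians of -1.62 to -1.36 in My5.LV cells. The members count in these medians, and miR-23a-3p, miR-24-3p, miR-26a-5p, miR-26b-5p and miR-27a-3p share the same class. The class is therefore not a reference independent of the members. Each member lay between 0.26 below and 0.52 above the median of its class, with miR-24-3p at -0.26 and miR-27a-3p at 0.52. In My5.CRBN cells the class medians were -1.24 to -0.78, and the members lay from -0.45 (miR-27b-3p) to 0.53 (miR-27a-3p) around them. Of the 7 members, miR-27a-3p thus lay farthest above its class in both lines. With the mean of the miRNAs detected on all arrays (the global mean) as normalizer in place of the control wells, the median of all miRNAs became 0.07 for My5.LV cells (from -0.79) and 0.02 for My5.CRBN cells (from -0.52). The members' median was then -0.79 and -0.51, with 7 of 7 below 0 in both lines and none at least 3 fold lower.

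**Figure D2:**
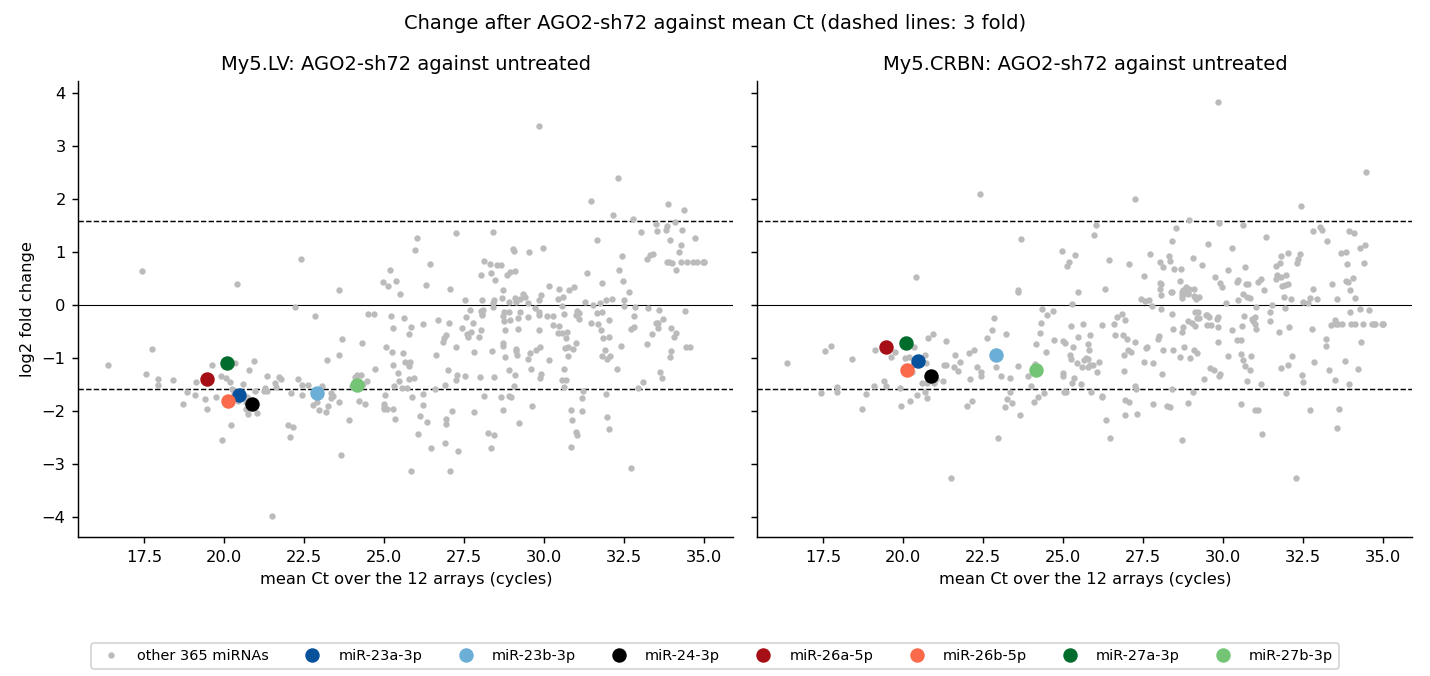
Log2 fold change with AGO2-sh72 against un-treated cells (y axis) by mean Ct over the 12 arrays in cycles (x axis), for My5.LV cells (left) and My5.CRBN cells (right); grey points are the other 365 miRNAs, coloured points the 7 members, and dashed lines 3 fold. The members lie among the other miRNAs of low Ct, at -1.87 to -1.09 in My5.LV cells and at -1.34 to -0.71 in My5.CRBN cells.

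With AGO2 cDNA the levels of most members were near those of un-treated cells, and miR-26b-5p was lower. In My5.LV cells the log2 fold change of miR-26b-5p was -1.09, 1 of 7 members at least 2 fold lower where 4.84% of all miRNAs were. In the same cells it was -0.84 for miR-26a-5p, and the other 5 members, from -0.37 (miR-23b-3p) to 0.32 (miR-23a-3p), lay within the SD of the control wells (0.41). In My5.CRBN cells miR-26b-5p had a log2 fold change of -1.69 and was 3.23 fold lower, 1 of 7 members at least 3 fold lower where 6.18% of all miRNAs were. The other 6, from -0.40 (miR-27b-3p) to 0.31 (miR-27a-3p), lay within the SD of the control wells (0.56). The paralog miR-26a-5p was among these 6, at -0.26. Under the other normalizers and with the median of its Ct class subtracted, miR-26b-5p was at -1.73 to -0.92 in My5.LV cells and at -1.92 to -1.43 in My5.CRBN cells.

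Set against AGO2-sh72, the AGO2 cDNA arrays had higher levels of all members but 1. In My5.LV cells the log2 fold change was 2.02 for miR-23a-3p and 1.75 for miR-27b-3p, 2 of 7 members at least 3 fold higher where 22.3% of all miRNAs were. The other members were 0.55 (miR-26a-5p) to 1.52 (miR-24-3p) higher, with a control-well SD of 0.23 and a median of 0.86 over all miRNAs. In My5.CRBN cells miR-24-3p, at 1.64, was the 1 of 7 members at least 3 fold higher where 10.2% of all miRNAs were. Here miR-26b-5p was lower, at -0.47, and the other 5 were 0.53 to 1.03 higher, with a control-well SD of 0.39 and a median of 0.41 over all miRNAs. These comparisons use the same AGO2-sh72 arrays as those above. The Ct classes of the members had medians of 1.07 to 1.40 in My5.LV cells and of 0.83 to 1.02 in My5.CRBN cells. Against these medians the members lay from -0.82 (miR-26a-5p) to 0.68 (miR-27b-3p) in My5.LV cells, 4 below and 3 above 0. In My5.CRBN cells they lay from -1.49 (miR-26b-5p) to 0.62 (miR-24-3p), 4 below and 2 above 0. Here miR-27b-3p was itself the median of its class. The median of the class of miR-23a-3p and miR-27a-3p lay midway between these members (1.03 and 1.02). The offsets of these members were thus set by the members themselves, and the count above and below 0 is not read as a result. With the global mean as normalizer, miR-26a-5p and miR-26b-5p turned to -0.49 and -0.32 in My5.LV cells, where the median of all miRNAs moved from 0.86 to -0.19, and the other 5 members stayed above 0.

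After 72 h of lenalidomide the members differed little from un-treated cells. In My5.LV cells the log2 fold changes lay between -0.53 (miR-24-3p) and -0.03 (miR-26a-5p), and 3 of the 7 were within the SD of the control wells (0.18). None of the 7 was at least 3 fold lower, and 0.538% of all miRNAs were. In My5.CRBN cells, with a control-well SD of 0.22, the log2 fold change was 0.69 for miR-26a-5p, 0.10 for miR-26b-5p, -0.19 for miR-23a-3p, -0.23 for miR-23b-3p, -0.36 for miR-27b-3p, -0.46 for miR-27a-3p and -0.66 for miR-24-3p. None was at least 3 fold higher, where 9.95% of all miRNAs were and the median of all was 0.30. Against the median of its Ct class, miR-26a-5p was 1.04 higher.

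After 120 h of lenalidomide all 7 members had higher levels in My5.LV cells. The log2 fold change against un-treated cells was 1.52 for miR-23a-3p (2.87 fold), 0.99 for miR-26a-5p, 0.75 for miR-23b-3p, 0.65 for miR-27b-3p, 0.55 for miR-27a-3p, 0.50 for miR-26b-5p and 0.45 for miR-24-3p. None passed 3 fold, and 4.3% of all miRNAs were at least 3 fold higher. Each value was above the SD of the control wells (0.41), while the median of all miRNAs was -0.05 and 47.6% of them were above 0. The classes of Ct that hold the members had medians of 0.46 or 0.49. Against its class miR-23a-3p was 1.03 higher and miR-26a-5p 0.50 higher, and miR-24-3p lay at -0.04.

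In My5.CRBN cells at 120 h the member with the highest log2 fold change was miR-26a-5p, at 1.31 (2.47 fold). That of miR-23a-3p was 0.58 and that of miR-26b-5p was 0.44, above the control-well SD of 0.22, and the other 4 lay from -0.16 (miR-27b-3p) to 0.19 (miR-27a-3p), within it. None was at least 3 fold higher, where 5.11% of all miRNAs were. Against the median of its Ct class miR-26a-5p was 1.26 higher. Set directly against My5.LV cells at 120 h, 6 of the 7 members had lower levels in My5.CRBN cells, from -0.98 for miR-23a-3p and -0.93 for miR-23b-3p to -0.49 for miR-27a-3p, with a control-well SD of 0.43. The exception was miR-26a-5p, at 0.20, and the median of all miRNAs was -0.03. The Ct classes of the members were also lower, with medians of -0.56 to -0.26. Against its class miR-23b-3p was at -0.67, miR-23a-3p at -0.42 and miR-27b-3p at -0.40. On the same scale miR-24-3p, miR-26b-5p and miR-27a-3p lay from -0.03 to 0.07, and miR-26a-5p was 0.76 higher.

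Between 72 h and 120 h of lenalidomide, all 7 members were higher at the later time in both lines. In My5.LV cells miR-23a-3p was 3.04 fold higher at 120 h, 1 of 7 members at least 3 fold higher where 4.3% of all miRNAs were, and the other 6 had log2 fold changes of 0.75 to 1.02. In My5.CRBN cells the members had log2 fold changes of 0.20 (miR-27b-3p) to 0.76 (miR-23a-3p), none at least 3 fold higher where 1.61% of all miRNAs were. The control wells had an SD of 0.56 in the former and 0.30 in the latter comparison, and the medians of all miRNAs were -0.02 and -0.40. In My5.CRBN cells 34.1% of all miRNAs were above 0. The Ct classes of the members were also higher at 120 h, except that of miR-27b-3p in My5.CRBN cells. Their medians were 0.47 to 0.73 in My5.LV cells and -0.05 (miR-27b-3p) to 0.42 in My5.CRBN cells. Against its class each member was 0.02 (miR-26b-5p) to 0.88 (miR-23a-3p) higher in My5.LV cells, where no member was then 3 fold higher, and the members lay from -0.08 (miR-26b-5p) to 0.34 (miR-23a-3p) in My5.CRBN cells.

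**Figure D3:**
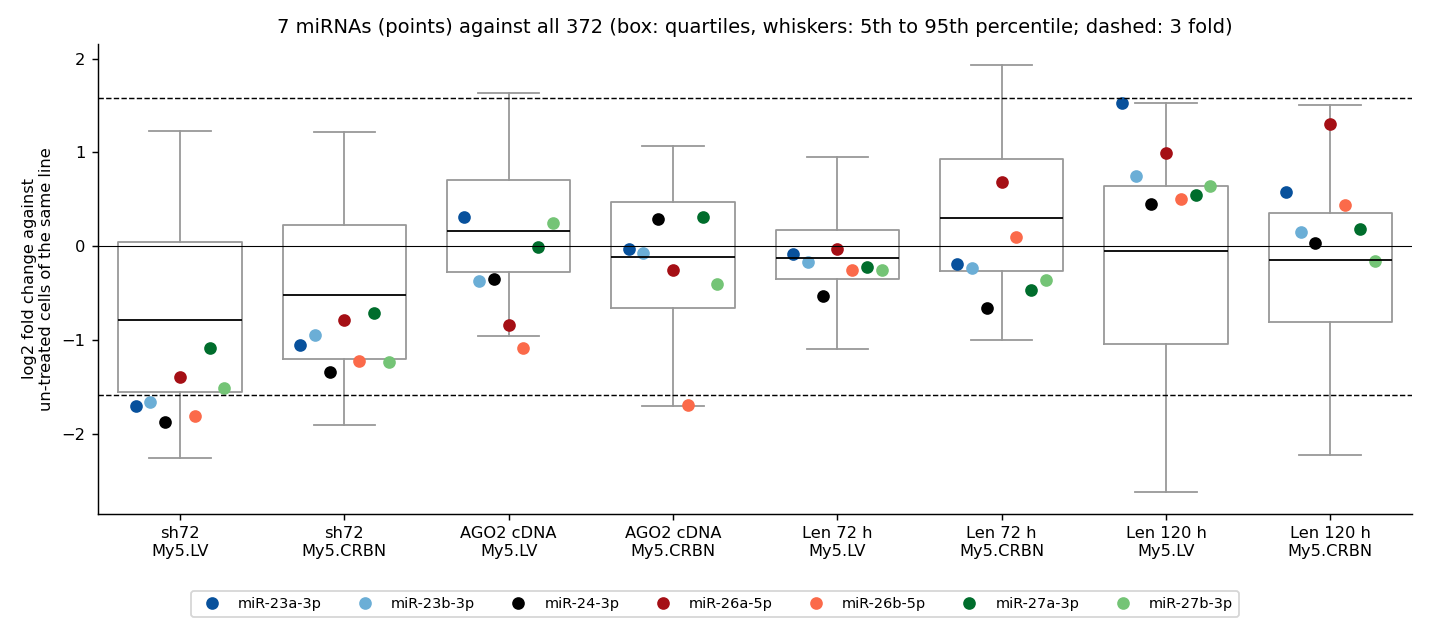
Log2 fold change from the un-treated array of each line (y axis) for 4 treatments in both lines; coloured points are the 7 members, and grey boxes give the quartiles of all miRNAs on the array with the median in black and whiskers from the 5th to the 95th percentile. The members lie below 0 with AGO2-sh72, and miR-26b-5p with AGO2 cDNA in My5.CRBN cells (-1.69), miR-23a-3p at 120 h in My5.LV cells (1.52) and miR-26a-5p at 120 h in My5.CRBN cells (1.31) stand apart from the other members.

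AGO2 cDNA together with 72 h of lenalidomide was set against lenalidomide alone. In My5.LV cells all 7 members, from -0.44 (miR-26b-5p) to 0.54 (miR-27b-3p), lay within the control-well SD of 0.58, with single control wells from -0.49 to 1.06. In My5.CRBN cells 6 of the 7 lay within the SD of 0.45, and miR-27a-3p was at 0.56. In these cells miR-26b-5p was at -0.39, inside that spread, whereas AGO2 cDNA without lenalidomide had given -1.69. With RNU6-2 alone as normalizer all 7 members were below 0 in both lines, with medians of -1.19 for My5.LV cells and -0.71 for My5.CRBN cells, where the medians of all miRNAs were -1.19 and -1.02. Set against AGO2 cDNA alone, the arrays with both treatments had a log2 fold change of 1.41 for miR-26b-5p, 0.97 for miR-26a-5p and -1.38 for miR-24-3p in My5.CRBN cells. In My5.LV cells these were 0.40, 0.68 and -0.29.

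Between un-treated cells of the lines the members were much alike. The log2 fold change of My5.CRBN against My5.LV cells was -0.46 for miR-26b-5p and -0.34 for miR-23b-3p, and the other 5 lay from -0.19 (miR-24-3p) to 0.14 (miR-27b-3p), within the control-well SD of 0.22.

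Paralogs were next compared within an array, where the difference of their levels needs no normalizer. Only its change between arrays is read, since each assay has its own efficiency. The difference of miR-23a-3p minus miR-23b-3p was 2.06, 2.01, 2.75, 2.14, 2.84 and 2.71 in My5.LV cells, in the order un-treated, AGO2-sh72, AGO2 cDNA, lenalidomide 72 h, lenalidomide 120 h, and AGO2 cDNA with lenalidomide. In My5.CRBN cells it was 2.37, 2.26, 2.41, 2.41, 2.79 and 2.61. With AGO2-sh72 the difference changed by -0.05 and -0.11 from un-treated cells of the lines, so the paralogs were lower by about the same amount. The difference of miR-27a-3p minus miR-27b-3p was 4.09, 4.51, 3.84, 4.12, 4.00 and 3.19 in My5.LV cells and 3.83, 4.35, 4.54, 3.72, 4.18 and 4.56 in My5.CRBN cells. Its lowest and highest values were both on arrays with AGO2 cDNA and lenalidomide, in opposite lines.

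The difference of miR-26a-5p minus miR-26b-5p was -0.03, 0.39, 0.22, 0.19, 0.46 and 0.50 in My5.LV cells and 0.31, 0.75, 1.74, 0.89, 1.18 and 1.31 in My5.CRBN cells. It was above the un-treated value of its line on all 10 treated arrays, by 0.22 to 0.53 on the My5.LV arrays and by 0.44 to 1.43 on the My5.CRBN arrays. The 10 values share 2 un-treated arrays, so they are not independent. Each assay had 1 well per array, and 2 wells of the positive PCR control differed by 0.383 cycles (root mean square) and by up to 0.839. The My5.LV changes are of the size of that spread. So are the My5.CRBN changes with AGO2-sh72 (0.44) and after 72 h of lenalidomide (0.58). Over the 12 arrays the SD of the difference was 0.29 for the miR-23 pair, 0.40 for the miR-27 pair and 0.53 for the miR-26 pair. Without the My5.CRBN array with AGO2 cDNA the SD of the miR-26 pair was 0.42.

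**Figure D4:**
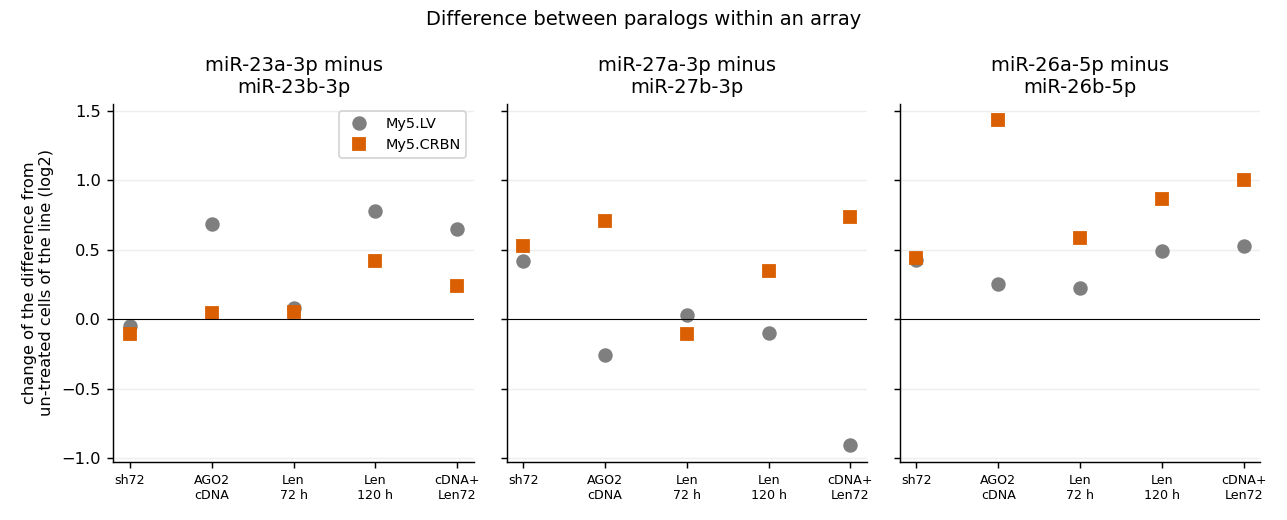
Change of the within-array difference between paralogs (log2, y axis) from the un-treated array of each line, for the 5 treatments in My5.LV cells (grey circles) and My5.CRBN cells (orange squares), 1 array per point. For the miR-26 pair all 10 points lie above 0, the highest at 1.43 with AGO2 cDNA in My5.CRBN cells.

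The arrays also hold 4 of the opposite arms, which are the rarer products of the miR-23 and miR-27 hairpins, with the seed in capitals as above.
miR-23a-5p: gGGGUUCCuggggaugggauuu
miR-23b-5p: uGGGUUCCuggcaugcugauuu
miR-27a-5p: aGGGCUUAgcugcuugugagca
miR-27b-5p: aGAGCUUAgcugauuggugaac
Their seeds differ from those of the main arms, and the miR-23 arms share a seed whereas the miR-27 arms do not. Their Ct values were 26.7 to 33.9, where a single well is less precise than at the Ct of the main arms. With AGO2-sh72 they were not all lower, as the main arms were. In My5.LV cells the log2 fold change was 0.35 for miR-23a-5p, -0.36 for miR-23b-5p, 1.07 for miR-27a-5p and -0.72 for miR-27b-5p. In My5.CRBN cells it was -0.30, 0.58, -0.33 and -0.22 for the same arms.

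Within an array, the main arm minus the opposite arm was therefore lower with AGO2-sh72 than in un-treated cells in all 4 hairpins and both lines. In My5.LV cells the log2 change of this difference was -2.05 for miR-23a, -1.30 for miR-23b, -2.16 for miR-27a and -0.78 for miR-27b. In My5.CRBN cells it was -0.76, -1.52, -0.38 and -1.01. The miRNAs of high Ct had log2 fold changes nearer to 0 than those of low Ct with AGO2-sh72, as given above. With the median of its Ct class subtracted from each arm, an alternative chosen after seeing the data, 5 of the 8 changes were below 0 and 3 were above 0. Those above were 0.35 for miR-23a and 0.98 for miR-27a in My5.CRBN cells and 0.10 for miR-27b in My5.LV cells, and the lowest was -0.92 for miR-23a in My5.LV cells. After 120 h of lenalidomide the change of this difference had no common sign, at 1.15, 2.33, -0.47 and 0.84 on the My5.LV array and -0.64, -1.28, -1.17 and 0.36 on the My5.CRBN array. The opposite arms themselves ranged at 120 h from -1.58 (miR-23b-5p) to 1.02 (miR-27a-5p) in My5.LV cells. In un-treated My5.CRBN cells the level of miR-23b-5p was already 1.89 below that in My5.LV cells (log2 fold change -1.89), which enters every value of that arm in this comparison.

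**Figure D5:**
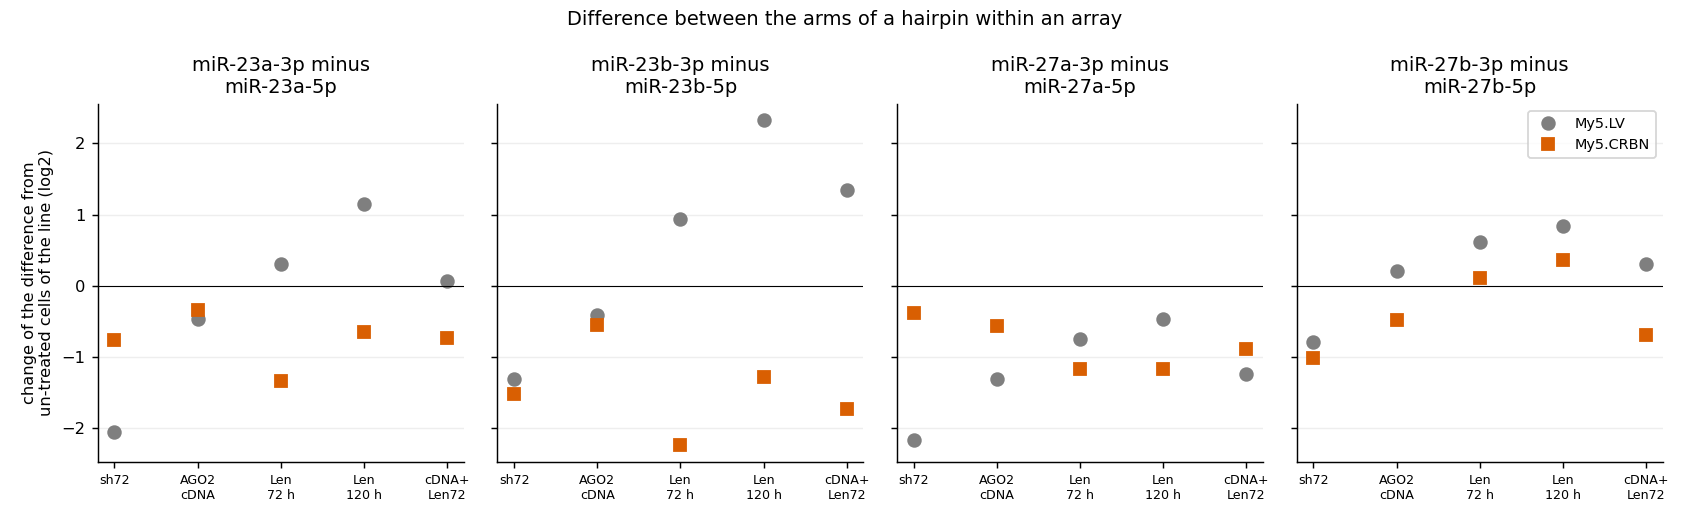
Change of the within-array difference between the main arm and the opposite arm of a hairpin (log2, y axis) from the un-treated array of each line, for the 5 treatments in My5.LV cells (grey circles) and My5.CRBN cells (orange squares), 1 array per point. All 8 AGO2-sh72 points lie below 0, from -2.16 to -0.38, and 3 of them turn above 0 once the median of each arm's Ct class is subtracted.

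The pattern of each member over the 12 arrays was last compared with those of 307 other miRNAs under Ct 35 on all arrays, by the root mean square difference of centred levels, where a small value stands for a like pattern. The miRNAs most like miR-23a-3p were miR-30d-5p (0.170) and miR-130b-3p (0.238), those most like miR-23b-3p were miR-25-3p (0.142) and miR-146b-5p (0.171), and those most like miR-24-3p were miR-30a-5p (0.246) and miR-93-5p (0.271). For miR-27a-3p they were miR-342-5p (0.214) and miR-92a-3p (0.217), and for miR-27b-3p they were let-7g-5p (0.171) and miR-130b-3p (0.203). The miR-26 members had the least close neighbours, miR-181b-5p (0.320) and miR-190a-5p (0.338) for miR-26a-5p and miR-195-5p (0.311) and let-7c-5p (0.339) for miR-26b-5p. Over all miRNAs compared, the median was 0.692 to 0.865. The nearest member to miR-23a-3p was its paralog (0.278), and 4 miRNAs that are not members were nearer. For miR-23b-3p the nearest member was miR-27a-3p of the other cluster (0.267), close to the 0.278 of its paralog, and 12 miRNAs that are not members were nearer. The miR-26 paralogs were 0.507 apart, and 34 other miRNAs were nearer to miR-26a-5p than miR-26b-5p was.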

How the data were processed

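Total RNA was isolated with the miRNeasy Mini kit, reverse transcribed with the miScript II RT kit, and run on miScript miRNA PCR Arrays. The values used are the threshold cycles (Ct) per well, which the authors deposited without normalization. A deposited table of the authors' own ratios to the un-treated My5.LV array was not used. Wells with no Ct or a Ct over 35 were given 35, and each array was normalized to the average of its 6 control wells for small RNAs. A cycle was taken as 2 fold. All miRNAs were normalized together. At least 3 fold higher or lower, as in the study, was counted over the 7 members and over all miRNAs. Arrays have no sequencing depth, and 1 well for each miRNA and condition limits the precision.

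The members and lists were chosen with earlier results of these data known. All 7 members, the opposite arms with a well, and the 2 miRNAs most like each member were named. Likeness was the root mean square difference of levels centred on their own mean, over miRNAs under Ct 35 on all 12 arrays.

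Alternatives were a 2 fold threshold, a Ct cap of 32, and other normalizers: RNU6-2 alone, the 5 SNORD wells, the global mean (over miRNAs detected below the cap throughout), or the reverse transcription control wells. The median of 10 classes of mean Ct, taken over all miRNAs with the members among them, was also subtracted. The counting was tested on simulated data. Values were computed in Python 3.11.15 with pandas 2.3.3 and NumPy 2.4.6, and plots were drawn with Matplotlib 3.10.9.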

Additional observations from a re-analysis of the deposited data

Results flagged for a closer look

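The log2 fold change of miR-26b-5p between AGO2 cDNA and AGO2-sh72 had opposite signs in the lines, 0.73 for My5.LV cells and -0.47 for My5.CRBN cells, each larger than the SD of the control wells (0.23 and 0.39). With 1 array per condition the difference between the lines was not tested. Against un-treated cells, AGO2 cDNA gave -1.09 for My5.LV cells and -1.69 for My5.CRBN cells. With the global mean as normalizer the signs were no longer opposite, at -0.32 and -0.77, and after subtraction of the Ct class median they were -0.65 and -1.49. The paralog difference on the My5.CRBN array with AGO2 cDNA, which needs no normalizer, was 1.74, the highest of the 12 arrays. The next highest, 1.31, was on the My5.CRBN array with AGO2 cDNA and lenalidomide.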

How the results depend on the processing

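No paired analysis was possible because each condition had 1 array and no replicate numbers that pair arrays, and a model that takes the lines as replicates of a treatment was not run. The counts of members at least 3 fold lower or higher moved as follows, with the 2 fold threshold as one of the settings. For AGO2-sh72 in My5.LV cells the 4 members became 7 at 2 fold, 7 with RNU6-2 alone, 2 with the 5 SNORD wells, and 0 with the global mean or after subtraction of the median of the Ct class. For AGO2-sh72 in My5.CRBN cells 0 became 4 at 2 fold, and 3 with RNU6-2 alone or the reverse transcription control wells. For AGO2 cDNA, 0 lower in My5.LV cells became 1 at 2 fold and 1 with RNU6-2 alone, and 1 lower in My5.CRBN cells became 0 with the global mean or the Ct class. For AGO2 cDNA against AGO2-sh72 in My5.LV cells, 2 higher became 5 at 2 fold, 4 with RNU6-2 alone, 1 with the reverse transcription control wells, and 0 with the global mean or the Ct class. In My5.CRBN cells 1 higher became 3 at 2 fold and 0 with the global mean or the Ct class. After 120 h of lenalidomide, 0 higher became 1 at 2 fold in either line and 1 with the global mean in My5.LV cells. The alternatives for the comparisons below were added after seeing the data. Between 72 h and 120 h in My5.LV cells, 1 higher became 2 at 2 fold and 0 with the Ct class. For AGO2 cDNA and lenalidomide against AGO2 cDNA in My5.CRBN cells, 0 lower became 1 at 2 fold, with the global mean or with RNU6-2 alone, and 0 higher became 1 at 2 fold. For My5.CRBN against My5.LV cells with AGO2 cDNA, 0 lower became 1 at 2 fold. The cause was not tested, beyond the construction of each setting.

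Under every normalizer all 7 members were below 0 with AGO2-sh72 in both lines, with medians of -2.64 (RNU6-2 alone) to -0.79 (global mean) in My5.LV cells. After subtraction of the Ct class median 5 of 7 were below 0 in My5.LV and 2 of 7 in My5.CRBN cells. At 120 h of lenalidomide in My5.LV cells, all 7 were above 0 under every normalizer, and 6 of 7 after subtraction of the class median. Of the 154 log2 fold changes of the members in the 22 comparisons, the sign changed in 20 with the global mean, 17 with RNU6-2 alone, 14 with the reverse transcription control wells, 7 with the 5 SNORD wells and 36 with the Ct class. Of the values past 3 fold, none changed sign, but some came close to 0. With the Ct class median subtracted, the 4 for AGO2-sh72 in My5.LV cells lay from -0.26 (miR-24-3p) to -0.03 (miR-23b-3p). The SD of the control wells there was 0.51. The Ct cap of 32 lies above every Ct of the members and could not move them. The likeness between miRNAs does not depend on the normalizer. Neither thus bears on the stability of the members' values. The cap of 32 did move the median of all miRNAs, from -0.79 to -0.47 for AGO2-sh72 in My5.LV cells. For AGO2 cDNA against AGO2-sh72 in My5.CRBN cells that median moved from 0.41 to 1.01, where the members' median was 0.87.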
